A study of Homo sapiens with 6 samples.

Results

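Fibronectin and the integrin subunits that bind it and its neighbours in the matrix were followed in HT1080 cells labelled as TOP3B knockout or wild type. The set holds 10 genes chosen by symbol, FN1, 6 integrin alpha subunits (ITGA2, ITGA3, ITGA4, ITGA5, ITGA6 and ITGAV) and 3 beta subunits (ITGB1, ITGB3 and ITGB5), of 35819 genes in the deposited tables. HT1080 is a human fibrosarcoma line with fibroblast-like shape. Per the labels, total RNA depleted of ribosomal RNA was sequenced in 3 libraries from a TOP3B knockout (KO), named E2-2 and produced by CRISPR cutting aimed at exon 2, and in 3 libraries from wild-type (WT) HT1080 cells. Both groups were grown in the same medium with fetal bovine serum, and no treatment is given. Every sample label says HT1080, although HCT116 stands in 1 sentence of the design text as the WT line. TOP3B is a topoisomerase that works on DNA as well as RNA, and the study asked how it affects R-loops and transcription. The KO libraries are labelled as 1 line, so a difference belongs to that line set against the WT cells.

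Fibronectin is a secreted dimeric glycoprotein that cells assemble into fibrils, and it is one of the most abundant matrix products of fibroblast-like cells. An integrin is a pair of 1 alpha and 1 beta subunit that spans the membrane and ties the matrix outside to actin inside through talin and kindlin. The pair α5β1 and the αv integrins bind the Arg-Gly-Asp motif of fibronectin, α4β1 binds an alternatively spliced segment of it and also VCAM1, α2β1 binds collagen, and α3β1 and the α6 integrins bind laminins. The ITGB1 chain pairs with every alpha subunit measured here, and the ITGB3 and ITGB5 chains pair with ITGAV.

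The start regions of the genes that changed are shown first, because their transcripts are the ones the results turn on. FN1 lies at chr2:215360440-215436172 on the minus strand, ITGA2 at chr5:52989326-53094779, ITGA4 at chr2:181457202-181536187 and ITGA6 at chr2:172427354-172506282, all 3 on the plus strand (GENCODE v29, GRCh38). RefSeq promoter windows (GRCh38.p14, 250 bases before to 50 after an annotated start) were found for 8 of the 10 genes, in 13 windows, and ITGA3 and ITGB3 had no entry. The bases of the first window of each changed gene that lie before the start and in no GENCODE exon of that gene are printed 5′ to 3′, with matches on either strand to TGACGTCA (the cyclic AMP response element), CCAAT (the CCAAT box), TGANTCA (the AP-1 element), GGGCGG (the GC box) and GGAATG (the TEAD element) in capitals where a match lies wholly inside. The FN1 stretch is chr2:215436173-215436318 on the minus strand, that of ITGA2 chr5:52989102-52989325, that of ITGA4 chr2:181457136-181457201 and that of ITGA6 chr2:172427086-172427335.
FN1: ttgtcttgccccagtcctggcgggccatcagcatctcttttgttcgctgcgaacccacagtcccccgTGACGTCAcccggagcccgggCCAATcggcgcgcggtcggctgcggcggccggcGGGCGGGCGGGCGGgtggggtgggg
ITGA2: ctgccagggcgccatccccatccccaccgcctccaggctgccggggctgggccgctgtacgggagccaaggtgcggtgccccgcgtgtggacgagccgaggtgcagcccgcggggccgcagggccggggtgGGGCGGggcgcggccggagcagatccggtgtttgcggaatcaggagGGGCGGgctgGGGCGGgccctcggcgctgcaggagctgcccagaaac
ITGA4: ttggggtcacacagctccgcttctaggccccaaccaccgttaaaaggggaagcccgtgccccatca
ITGA6: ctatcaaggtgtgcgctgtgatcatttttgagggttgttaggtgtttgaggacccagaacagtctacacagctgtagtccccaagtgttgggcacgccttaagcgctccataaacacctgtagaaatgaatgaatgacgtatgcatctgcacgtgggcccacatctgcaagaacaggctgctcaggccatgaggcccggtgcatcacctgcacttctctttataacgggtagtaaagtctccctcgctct

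The FN1 window held TGACGTCA starting 183 bases before the start, and the CCAAT box starting 162 bases before it. In the 13 windows of these genes TGACGTCA occurred only in that of FN1, while 1.85% of 35116 RefSeq windows of the same length hold it on either strand. GGGCGG matched in 9 of the 13 windows and in 45.0% of all windows, with 6 matches in FN1, some of them overlapping, and 4 in ITGA2. CCAAT matched in 2 windows (34.6% of all), GGAATG in 2 (14.0%) and TGANTCA in 1, that of ITGA5 (7.71%). None of the 5 motifs matched in the ITGA4 window. Letters in a window are a description and say nothing of which factors bind there.

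Library totals were 18501898 to 20340136 estimated counts in KO and 17919106 to 20475280 in WT. Knockout replicate 3 lay apart, with an SD of log2 differences of 0.614 and 0.589 from knockout replicates 1 and 2, against 0.241 between those 2 libraries and 0.265 to 0.323 within WT. Knockout replicates 1 and 2 were 0.449 to 0.487 from the WT libraries, nearer than to replicate 3, which was 0.673 to 0.723 from WT. Results are therefore given with and without replicate 3. Whether the replicates are separate cultures is not in the labels, and the p-values then describe only the spread among libraries, which may be technical. TOP3B had 407, 383 and 361 counts in KO and 536, 376 and 469 in WT and did not pass (edgeR adjusted p = 0.342). Gene-level counts need not drop after a CRISPR edit, so they do not check the labels. Of 11 mesenchymal markers 7 passed the filter on low counts and 3 were called lower, where 4.63% of all tested genes were. These were SPARC, COL1A1 and COL5A1, with log2 fold changes of -0.73, -2.22 and -1.80. SPARC was at 3445 ± 200 CPM in KO and 5727 ± 175 CPM in WT (SD, n = 3 each). The 11 summed to 14748 to 15354 CPM in KO and 16866 to 18240 CPM in WT. The part of this in the results was not tested. VIM was at 11373 to 11712 CPM (counts scaled to library size) in KO and 11309.9 to 12352 CPM in WT, while COL3A1, THY1 and FAP stayed under 0.3 CPM in every library. The 7 epithelial markers summed to 2.11 to 2.51 CPM in KO and 2.99 to 3.15 CPM in WT. The 6 leukocyte markers in the tables summed to 13.0 to 13.9 CPM in KO and 17.3 to 21.1 CPM in WT, most of it ITGB2. The 3 endothelial and platelet markers in the tables summed to 0.639 to 1.38 CPM in KO and 0.355 to 1.03 CPM in WT, with VWF at 0.

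Of the 10 genes, FN1, ITGA2 and ITGA4 fell in the knockout, ITGA6 rose, and ITGA3, ITGA5, ITGAV, ITGB1 and ITGB5 did not pass the test. ITGB3 was too low to be tested, so 9 entered the fit. A call means an adjusted p under 0.05 in edgeR's quasi-likelihood test with Benjamini-Hochberg adjustment over 13965 genes, and fold changes are KO over WT. Calls were made for 7.84% of all tested genes, 3.21% higher and 4.63% lower (448 and 647 genes). On the deposited RPKM the split was 530 higher and 551 lower with a pseudocount of 1, and 521 and 528 with a pseudocount of 0.1. The median log2 fold change was -0.32 over the 9 members tested and 0.05 over all genes tested.

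FN1, the ligand, had by far the largest change of the set. Its counts were 71056, 70736 and 48188 in KO and 196926, 224835 and 256759 in WT. Scaled to library size these are 3495, 3561 and 2466 CPM in KO and 11214, 11399.7 and 12629.7 CPM in WT. All 3 KO libraries were thus far below all 3 WT libraries, and knockout replicate 3 was the lowest. FN1 averaged 3174 ± 614 CPM in KO and 11748 ± 769 CPM in WT (SD, n = 3 each). The log2 fold change was -1.89 ± 0.15 (SE), which is 3.70-fold lower (edgeR adjusted p = 0.00214), larger in size than the changes of 97.5% of tested genes. In bulk RNA, fewer cells with a transcript and less transcript per cell cannot be told apart. FN1 passed in all 6 fits without 1 library, at a log2 fold change of -1.98 to -1.74 and an adjusted p of up to 0.0182.

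**Figure D1:**
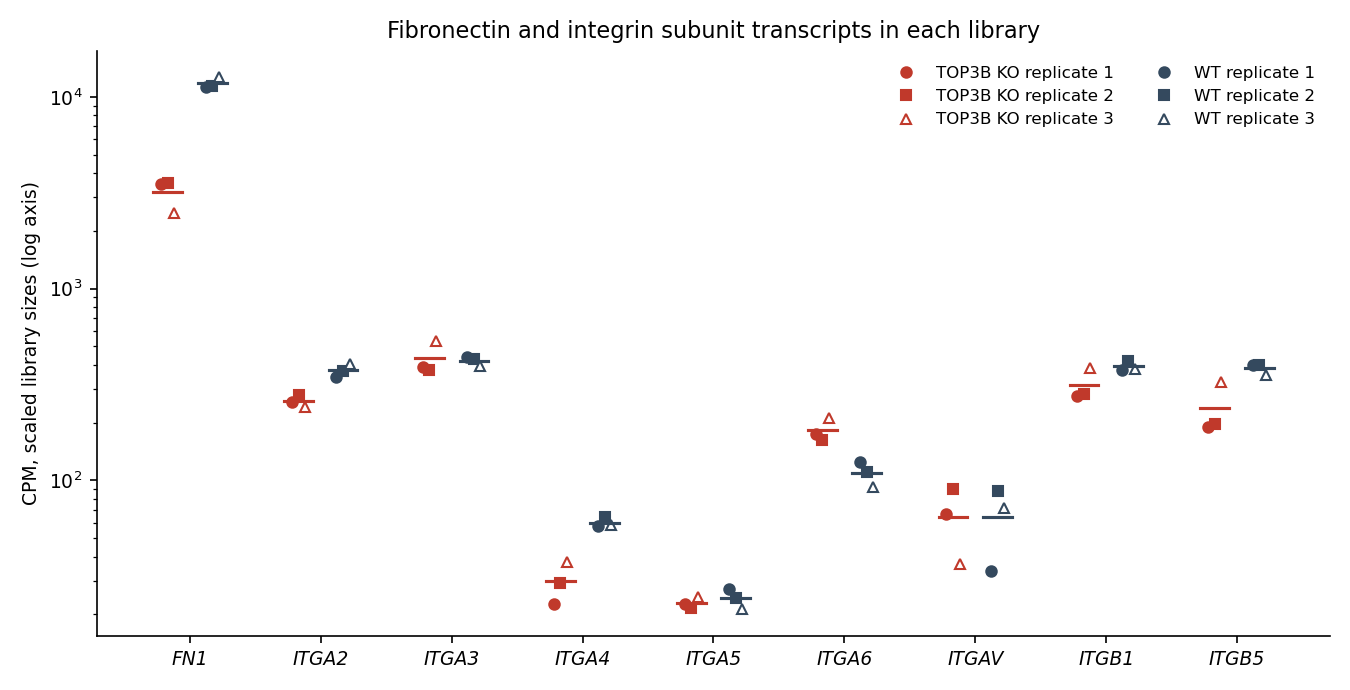
Levels in CPM (estimated counts scaled to library size, log axis) of FN1 and 8 integrin subunits in each library, with TOP3B KO libraries in red at the left of WT libraries in dark grey and a bar at each group mean. The KO points of FN1, ITGA2, ITGA4 and ITGB5 lie below their WT points and those of ITGA6 above, while ITGAV spans a wide range in both groups. ITGB3, with 0 counts in 2 KO libraries, is left out.

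Among the alpha subunits that bind fibronectin, ITGA4 fell, while ITGA5 and ITGAV did not pass. ITGA4, the alpha chain of the receptor for the spliced segment, had 460, 582 and 736 counts in KO and 1009, 1263 and 1189 in WT, or 22.6, 29.3 and 37.7 CPM in KO against 57.5, 64.0 and 58.5 CPM in WT. The groups did not overlap, and the highest KO library, replicate 3, stayed below the lowest WT library. This is a log2 fold change of -1.01 ± 0.19 (SE), or 2.01-fold lower (edgeR adjusted p = 0.0290). It was not called in 5 of the 6 fits with 1 library left out.

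ITGA5, the alpha chain of the main fibronectin receptor, lies at chr12:54395261-54419460 on the minus strand. It had 22.6, 21.5 and 24.7 CPM in KO and 27.2, 24.2 and 21.3 CPM in WT, and the groups overlapped. Its log2 fold change was -0.08 ± 0.15 (SE, edgeR adjusted p = 0.769). ITGAV, the alpha chain shared by the vitronectin receptors, lies at chr2:186590065-186680901 on the plus strand. It had 66.7, 90.4 and 36.6 CPM in KO and 33.8, 87.7 and 71.5 CPM in WT. The low libraries were knockout replicate 3 and WT replicate 1, so each group held a high and a low level. The highest WT library was 2.60 times the lowest, a spread matched or passed by 1.89% of 7828 tested genes averaging 10 CPM or more. Its log2 fold change of 0.00 ± 0.42 (SE, edgeR adjusted p = 0.996) moved between -0.32 and 0.29 when 1 library was left out.

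Of the collagen and laminin receptor chains, ITGA2 fell, ITGA6 rose and ITGA3 did not pass. ITGA2, the alpha chain of a collagen receptor, had 257, 278 and 241 CPM in KO and 344, 373 and 406 CPM in WT. Every KO library lay below every WT library, and replicates within a group were close. Its log2 fold change was -0.53 ± 0.10 (SE), or 1.45-fold lower (edgeR adjusted p = 0.0242). The call was lost in 5 of the 6 fits that leave out 1 library and with limma-trend on RPKM (adjusted p = 0.0606 and 0.0587 with pseudocounts of 1 and 0.1).

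ITGA6, the alpha chain of laminin receptors, had 175, 162 and 212 CPM in KO and 125, 111 and 91.9 CPM in WT. It was the only gene of the set called higher in the fit over all 6 libraries, and its groups did not overlap. This amounts to a log2 fold change of 0.75 ± 0.15 (SE), or 1.68-fold higher (edgeR adjusted p = 0.0346). Dropping 1 library ended this call in 5 of 6 fits. The call was also not made by limma-trend on RPKM (adjusted p = 0.0545 and 0.05002 with pseudocounts of 1 and 0.1). ITGA3, the other laminin receptor chain here, lies at chr17:50055968-50090481 on the plus strand. It had 388, 376 and 530 CPM in KO and 437, 429 and 396 CPM in WT, with knockout replicates 1 and 2 below and replicate 3 above every WT library. Its log2 fold change was 0.04 ± 0.14 (SE, edgeR adjusted p = 0.892), and it became -0.15 when knockout replicate 3 was dropped.

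None of the beta subunits passed with all 6 libraries in edgeR's test. Of the 2 tested, ITGB5 had an unadjusted edgeR p of 0.0151, at rank 2003 of 13965 tested genes. It was called by DESeq2, which called 15.7% of all tested genes. ITGB1, the beta chain shared by most matrix receptors, lies at chr10:32900319-33005792 on the minus strand. It had 277, 283 and 384 CPM in KO and 376, 420 and 381 CPM in WT. Knockout replicates 1 and 2 were below every WT library and replicate 3 was among them. The log2 fold change was -0.32 ± 0.14 (SE, edgeR adjusted p = 0.222).

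ITGB5, a partner of αv in a vitronectin receptor, lies at chr3:124761948-124901418 on the minus strand. It had 190, 196 and 327 CPM in KO and 401, 399 and 352 CPM in WT. The groups did not overlap, but knockout replicate 3 was close to WT replicate 3. The log2 fold change was -0.69 ± 0.21 (SE, edgeR adjusted p = 0.105, DESeq2 adjusted p = 0.0228). ITGB3, the beta chain of the other vitronectin receptor of this set and of platelets, lies at chr17:47253846-47311816 on the plus strand. It had 0, 0 and 9 counts in KO and 20, 8 and 4 in WT, below the filter, so no fold is given. A count of 0 in knockout replicates 1 and 2 allows up to 3 counts, or 0.148 and 0.151 CPM, for counting error only.

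In edgeR's test, knockout replicate 3 decided the calls of both tested beta subunits. Without it 6 of the 9 genes passed, at a background of 13.2%, with the 4 calls above kept. ITGB1 then fell by 0.50 on the log2 scale (edgeR adjusted p = 0.00782) and ITGB5 by 0.999 (adjusted p = 0.00203). Across all alternatives the adjusted p reached 0.473 for ITGB1 and 0.262 for ITGB5. Relative to the mean of knockout replicates 1 and 2, replicate 3 was higher for ITGB5 by 0.76, ITGA4 by 0.54, ITGA3 by 0.47, ITGB1 by 0.46 and ITGA6 by 0.33 on the log2 scale. It was lower for ITGAV, FN1 and ITGA2, at -1.10, -0.52 and -0.15. DESeq2 called 5 of the 9, at a background of 15.7%.

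The calls of ITGA2, ITGA4 and ITGA6 depended on which library was left out. Each passed in 1 of the 6 fits without 1 library, that without knockout replicate 3. In the other 5, FN1 was the only gene of the set to pass, at backgrounds of 2.71% and 2.5% without knockout replicates 1 and 2 and of 1.94%, 1.55% and 1.78% without WT replicates 1, 2 and 3. The largest adjusted p in these fits, reached without WT replicate 2, was 0.103 for ITGA2, 0.116 for ITGA4 and 0.127 for ITGA6. Their signs held in every fit, with log2 fold changes of -0.60 to -0.48, -1.22 to -0.84 and 0.62 to 0.84. In 5 of the 9 tested genes the KO and WT libraries did not overlap, FN1, ITGA2, ITGA4 and ITGB5 with KO below and ITGA6 with KO above. Over all tested genes 33.6% did not overlap, 17.1% with KO below and 16.5% with KO above.

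**Figure D2:**
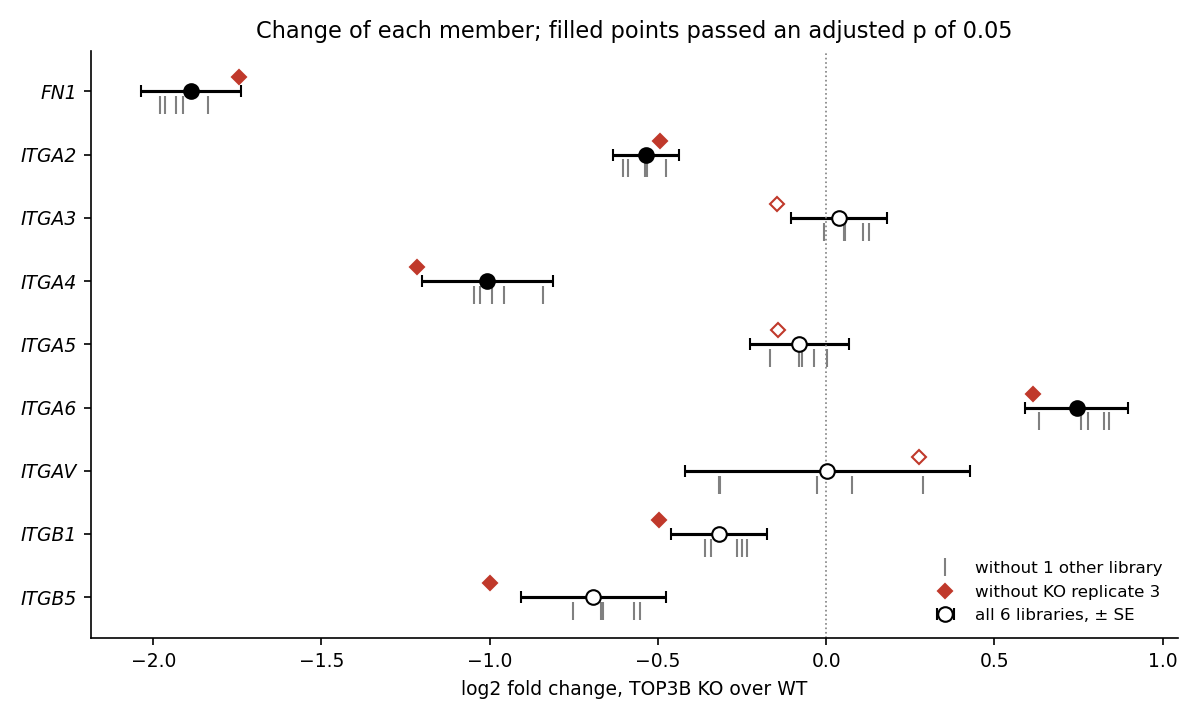
Log2 fold change (KO over WT) of each tested gene with all 6 libraries (circle, bar ± SE), without knockout replicate 3 (red diamond) and without each other library (grey ticks). Circles and diamonds are filled where the adjusted p was under 0.05; FN1 lies between -1.98 and -1.74 when 1 library is left out, and ITGB1 and ITGB5 become filled without knockout replicate 3.

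Levels were compared between genes per length. FN1 had the highest RPKM in both groups, at 111 ± 18.4 in KO and 395 ± 30.5 in WT (SD, n = 3 each). ITGA3 followed at 41.9 ± 9.74 RPKM in KO and 39.1 ± 1.69 RPKM in WT. In both groups the next pair was ITGB1 and ITGB5, whose ranges over libraries overlapped, at 6.66 ± 1.51 and 5.72 ± 2.05 RPKM in KO and at 7.95 ± 0.407 and 8.81 ± 0.544 RPKM in WT. In KO the order went on with ITGA5 (3.76 ± 0.379), ITGA6 (3.09 ± 0.542) and ITGA2 (2.58 ± 0.127 RPKM), each overlapping the next, and then ITGA4 (1.25 ± 0.354) and ITGAV (1.11 ± 0.443 RPKM), which overlapped. In WT it was ITGA5 (3.82 ± 0.447) and ITGA2 (3.59 ± 0.329 RPKM), which overlapped, then ITGA4 (2.40 ± 0.116), ITGA6 (1.77 ± 0.256) and ITGAV (1.07 ± 0.456 RPKM) with no overlap of neighbours. On this scale ITGA6 stood before ITGA2 and ITGA4 in KO and after them in WT. ITGB3 was last, at 0.00388 ± 0.00671 RPKM in KO and 0.0143 ± 0.0127 RPKM in WT.

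The length behind the RPKM sets this order. It was 29.1 kb for FN1, 102 kb for ITGA2, 10.5 kb for ITGA3 and 6.22 kb for ITGA5, against longest annotated transcripts of 9171, 7869, 5479 and 4996 bases. For 5 of the 10 genes it lay close to the mean genomic span of the gene's GENCODE transcripts, introns included, with ratios of 0.999 to 1.01 for ITGA2, ITGA3, ITGA4, ITGA5 and ITGB5. The ratios were 0.894 for FN1, 1.21 for ITGB3, 1.42 for ITGA6, 1.63 for ITGB1 and 1.68 for ITGAV. Per kilobase of the longest transcript, a scale added after the data were seen, FN1 was still first, at 346 ± 67.0 CPM per kb in KO and 1281 ± 83.9 in WT. ITGB1 was then second, at 83.1 ± 16.0 CPM per kb in KO and 104 ± 6.46 in WT, and ITGA5 was ninth, at 4.59 ± 0.321 in KO and 4.85 ± 0.593 in WT. ITGA2 then stood just before ITGA6 in KO, at 32.9 ± 2.35 and 32.6 ± 4.66 CPM per kb with overlapping libraries. In WT ITGA6 stood before ITGA4, at 19.4 ± 2.93 and 14.3 ± 0.845, so the change of order of ITGA6 seen by RPKM was absent. Other orders did change on this scale. ITGA3 stood before ITGB5 and ITGAV before ITGA4 in KO, with overlapping libraries, and after them in WT. The ITGA5 level relative to other chains therefore differed with the length chosen, whereas a comparison of KO with WT within a gene does not involve it.

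**Figure D3:**
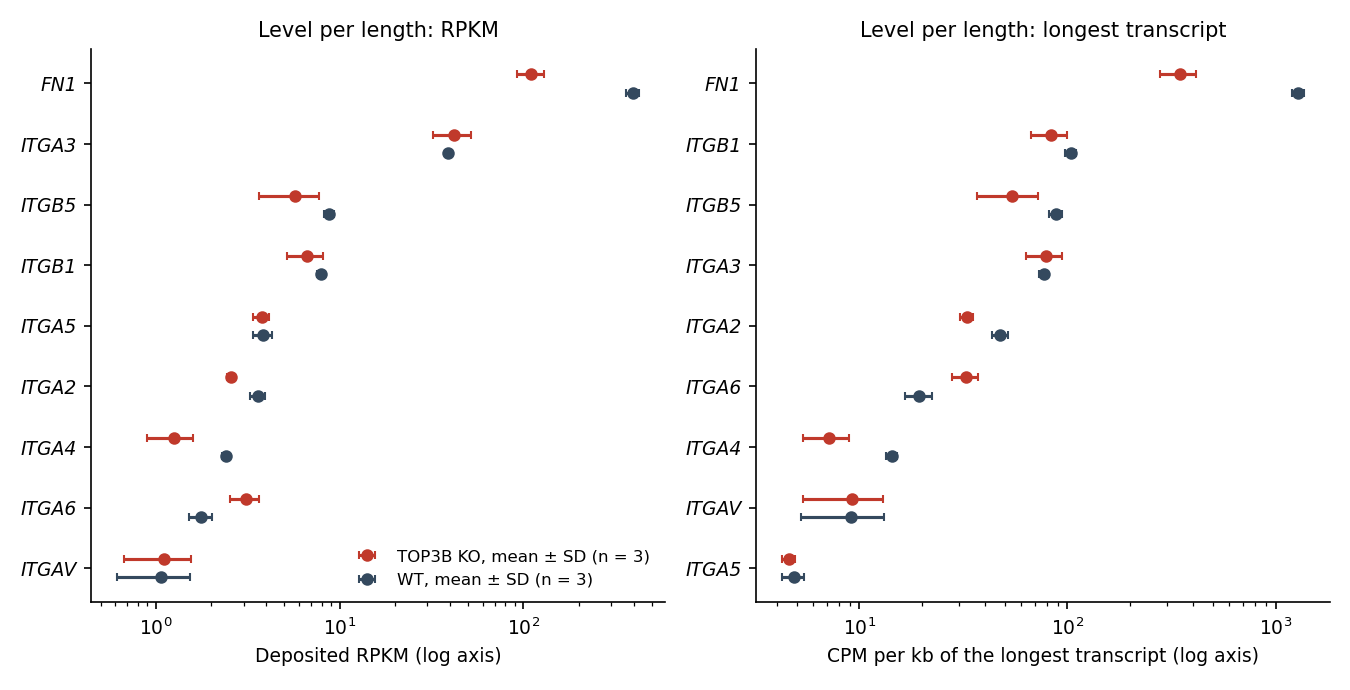
Level of each gene per length in TOP3B KO (red, upper point) and WT (dark grey, lower point) as mean ± SD of 3 libraries, on log axes, with the deposited RPKM at left and CPM per kilobase of the longest GENCODE transcript at right. FN1 is first on both scales, and ITGA5 stands at position 5 by RPKM and last of the 9 genes shown on the other scale.

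FN1, ITGA4, ITGA6 and ITGAV all lie on the long arm of chromosome 2, within 43.0 Mb. Of 142 other tested genes in that stretch 1 rose and 9 fell, with a median log2 fold change of -0.07. Over all tested genes 3.21% rose and 4.63% fell, and of 894 on chromosome 2 outside the set 30 rose and 33 fell. None of the 9 tested genes within 1 Mb of FN1 passed in edgeR's test, and their median was -0.07. By unadjusted p 4 of them were under 0.05, and 4 were called by DESeq2, which called 15.7% of all tested genes. Of the 894 genes of chromosome 2, 207 were under 0.05 by unadjusted p and 127 were called by DESeq2. None of the 3 near ITGA4 passed, with 0 at an unadjusted p under 0.05 and 0 by DESeq2, and none of the 4 near ITGAV, with 2 and 1. Near ITGA6, CDCA7 rose and METTL8 fell of 12. Over all members, 10 of 129 such neighbours passed, or 7.75%, next to 7.84% of all tested genes. The medians of the members' chromosomes lay between 0.03 and 0.10, except for chromosome 10, which carries ITGB1, at -0.18. Of 469 other tested genes on chromosome 10, 40 fell (8.53%) and 4 rose (0.853%). Near ITGB1, NRP1 fell of 4.

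Few annotated genes overlap these loci in the tables. ITGA6-AS1, antisense to ITGA6, had 0, 2 and 0 counts in KO and 10, 6 and 2 in WT. ITGB1-DT and ITGB5-AS1 had 0 in every library. ENO1P3, a pseudogene inside ITGB5, had 38, 39 and 28 counts in KO and 41, 50 and 39 in WT. The library kit marks strand, but no source used here says that the counting did, so reads from antisense genes cannot be told apart. Their part in the results was not tested.

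By the root mean square difference of centred log2 CPM over the 6 libraries, the genes most like FN1 among 832 called candidates averaging 10 CPM or more were WNT5A, ENPP1 and PLPP4, at differences of 0.05, 0.08 and 0.11. WNT5A, a secreted Wnt ligand on chromosome 3, had 259, 258 and 199 CPM in KO and 835, 887 and 942 CPM in WT. As for FN1, knockout replicate 3 was the lowest library and WT replicate 3 the highest. WNT5A was picked by likeness in these same 6 libraries, so the shared order adds nothing to that choice. ENPP1, an ectoenzyme that makes pyrophosphate, averaged 21.0 ± 5.43 CPM in KO and 79.5 ± 7.59 CPM in WT, and PLPP4, a lipid phosphatase, 8.97 ± 1.31 and 35.9 ± 3.38 CPM in KO and WT (SD, n = 3 each). These genes lie on chromosomes 3, 6 and 10, and the likeness is a description.

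Of the other ligands of these integrins and partners of fibronectin, 23 of 29 listed genes were tested, of which 5 fell and 2 rose, where 4.63% of all tested genes fell and 3.21% rose. The other 16 did not pass, and the list's median log2 fold change was -0.03. SPP1, the Arg-Gly-Asp ligand osteopontin, fell to 0.599 ± 0.289 CPM in KO, against 5.94 ± 2.86 CPM in WT (SD, n = 3 each). LTBP1, a latent TGF-beta binder that docks on fibronectin, fell to 191 ± 5.93 CPM in KO, against 549.6 ± 21.6 CPM in WT. The other 3 that fell, named after their values were seen, were TNC, TGFBI and TGM2, with log2 fold changes of -1.14, -0.84 and -0.32. SDC4, a heparan sulfate proteoglycan that acts as a co-receptor for fibronectin, rose to 873 ± 43.2 CPM in KO, against 568 ± 15.3 CPM in WT. FBLN2, a fibronectin-binding fibulin, rose to 60.8 ± 2.76 CPM in KO, against 0.874 ± 0.766 CPM in WT. When each library was dropped in turn, SPP1 passed 2 of 6 times and FBLN2, SDC4 and LTBP1 passed 6 of 6 times. Whenever the dropped library was not knockout replicate 3, only 2 genes of the list were called lower, LTBP1 among them. TNC, TGFBI and TGM2 therefore did not all keep their calls in any of those fits.

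Integrin subunits outside the set gave no call with all 6 libraries. Of 17, 12 were tested, and their median log2 fold change was -0.35. In edgeR's test on all 6 libraries with TMM scaling 0 passed, where 7.84% of all tested genes did. By unadjusted edgeR p 4 were under 0.05. Among all 13965 tested genes, an edgeR p of 0.0469 stood at rank 3343 and 1 of 0.0571 at rank 3680. DESeq2 called 3, and 15.7% of all tested genes. With edgeR, 1 was called lower under DESeq2 size factors, 1 without knockout replicate 3 and 1 without WT replicate 2. The highest by mean RPKM over all 6 libraries were ITGAE, an alpha chain known from lymphocytes, at 23.8 ± 1.93 CPM in KO and 25.4 ± 1.57 CPM in WT, and the collagen receptor chain ITGA10, at 4.63 ± 0.692 CPM in KO and 12.6 ± 6.24 CPM in WT (SD, n = 3 each). In KO alone ITGB2, a leukocyte beta chain, was above ITGA10, at 0.573 RPKM against 0.429 RPKM. ITGA10 did not pass (edgeR adjusted p = 0.0825) and was at 5.93 CPM in WT replicate 2 and 13.6 and 18.3 CPM in the other WT libraries. It was called by DESeq2 (adjusted p = 0.00970) and by edgeR without WT replicate 2 (log2 fold change -1.79, adjusted p = 0.0435), and its adjusted p reached 0.224 across all alternatives.

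Inside the cell, 46 of the 48 listed genes of focal adhesions and integrin activation were tested. Of these 6 fell and 1 rose, where 4.63% of all tested genes fell and 3.21% rose. The other 39 did not pass, and the list's median log2 fold change was -0.14. ENAH, an actin-elongating protein at adhesions, fell to 98.4 ± 25.0 CPM in KO, against 231 ± 7.65 CPM in WT (SD, n = 3 each). FYN, a Src family kinase, fell to 122 ± 5.77 CPM in KO, against 223 ± 4.42 CPM in WT. FHL2, a LIM protein that binds integrin tails, rose to 591 ± 12.7 CPM in KO, against 387 ± 25.5 CPM in WT. Without knockout replicate 3, 12 of the 46 fell and 1 rose. Of all 14358 genes tested in that fit 13.2% were called, 1125 lower and 774 higher. FYN passed in all 6 fits without 1 library, FHL2 in 5 (not without WT replicate 3) and ENAH in 2.

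Of 24 listed membrane partners and trafficking factors 20 were tested. Of these 3 fell and 1 rose, again beside 4.63% lower and 3.21% higher of all tested genes. The other 16 did not pass, and the list's median log2 fold change was -0.17. CD82, a tetraspanin, fell to 88.6 ± 8.95 CPM in KO, against 142 ± 4.07 CPM in WT (SD, n = 3 each). NRP1, a co-receptor that helps traffic α5β1, fell to 870.0 ± 80.5 CPM in KO, against 1330.0 ± 24.5 CPM in WT. CD47, a partner of αvβ3, rose to 59.2 ± 0.948 CPM in KO, against 32.3 ± 2.73 CPM in WT. The third to fall was NUMBL, named after its value was seen, with a log2 fold change of -0.47. When knockout replicate 3 was dropped, 6 of 20 fell and 1 rose, beside 1125 lower and 774 higher of all 14358 genes tested (13.2% called). CD47 passed in 5 of the 6 fits without 1 library (not without WT replicate 2), NRP1 in 2 and CD82 in 1. NUMBL passed in none of the fits that left out a library other than knockout replicate 3.

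**Figure D4:**
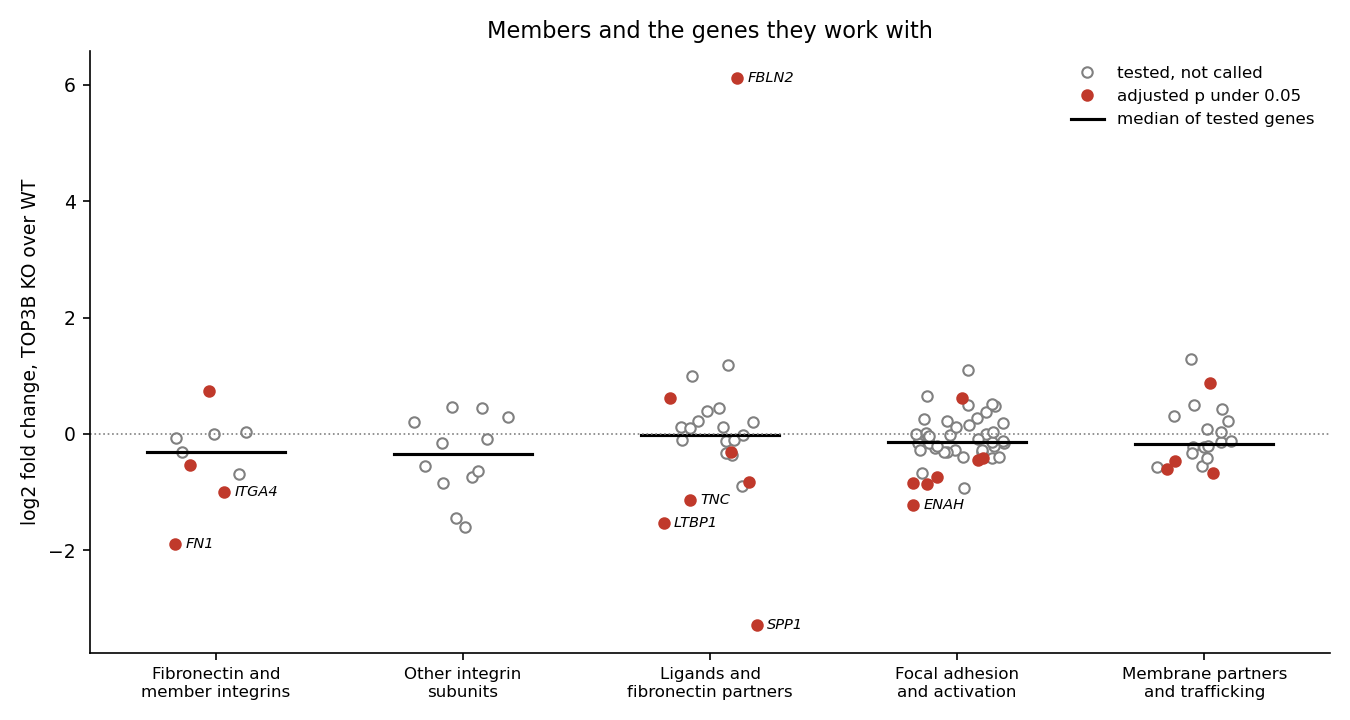
Log2 fold change (KO over WT) of tested genes, with fibronectin and the member integrins at left and 4 lists of genes they work with; red points passed an adjusted p of 0.05, open points did not, black bars are medians, and sideways scatter is for display. Names are given for called genes with a change above 1 in size; the medians lie between -0.35 and -0.03.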

How the data were processed

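Per the file headers, the deposited tables give an estimated count and an RPKM for each gene in each library. Salmon (1.10.1) and hg19 appear in the submitters' processing notes, with no statement of their roles. The RPKM imply fractional counts, so the counts the authors deposited are rounded estimates. Of 35820 rows, 1 was named differently in the tables and left out. Genes were filtered with filterByExpr, scaled by TMM and tested with edgeR 4.0.16 (quasi-likelihood F test, R 4.3.3), Benjamini-Hochberg adjusted over 13965 genes. SEs come from the F statistic. CPM use scaled library sizes. Chi-square per degree of freedom between replicates of a group was at least 11.9 (knockout replicates 1 and 2), so none was counted as a copy. The test was tried on simulated counts. KO labels carry no replicate numbers; these follow deposition order. Positions and transcripts are from GENCODE v29 (GRCh38), matched by symbol, and promoters from RefSeq (GRCh38.p14). Members and lists were chosen with earlier results of these data known. Named genes were TOP3B, all members, up to 2 risers and 2 fallers per list with a mean of at least 1 CPM (or, with no call, the 2 highest by RPKM) and the 3 most like FN1. Alternatives used DESeq2 1.42.0 and limma 3.58.1. Intervals and floors cover counting error only.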

Additional observations from a re-analysis of the deposited data

How the results depend on the processing

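Under 17 alternatives no called gene of the set reversed. DESeq2 moved the count of genes called to 2199 (against 1095 in edgeR), of list genes to 30 (18 of 101) and of neighbours to 25 (10 of 129), with 5 members called. With limma-trend on RPKM, 2 members passed at both pseudocounts (1 and 0.1), FN1 and ITGA4. The limma-trend adjusted p, in that order of pseudocounts, was 0.0468 and 0.0498 for ITGA4 and 0.0606 and 0.0587 for ITGA2. For ITGA6 it was 0.0545 and 0.05002. With a pseudocount of 0.1, ITGA4 and ITGA6 thus lay close to the threshold on either side of it. Leaving out 1 library gave 223 to 1899 genes, 1 to 6 members, 8 to 28 list genes and 4 to 20 neighbours. The cause was not tested. Other scalings moved the median of all genes by at most 0.06 (log2). No paired analysis was possible because the KO labels carry no replicate number.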
